A study of Homo sapiens with 3 samples.

Results

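The genes examined were 10 members of the LIF and IL6 family pathway among the 19689 protein-coding genes of the GENCODE 44 annotation. They were the ligands LIF, IL6, IL11, OSM and CLCF1, the receptor chains LIFR, IL6R, IL6ST and OSMR, and the transcription factor STAT3. The genes were listed by name, but with earlier results of these data known. LIF was an example picked by the study itself, which reported SBNO1 and TAF4 enrichment around its start in these data. For each gene every peak was collected that lay within 1 kb of a transcription start site (TSS) of one of its protein-coding transcripts, in the gene body or within 50 kb of either gene end. The data came from a ChIP-seq experiment, in which DNA bound by a protein is precipitated with an antibody and sequenced, in HuCCT1, an established line of human cholangiocarcinoma (bile duct cancer) cells for which the labels give no treatment. One library had been made with an antibody against Strawberry Notch 1 (SBNO1), another against TAF4, which belongs to the TFIID complex that RNA polymerase II needs to start transcription, and another with non-specific immunoglobulin (IgG), which measures the background of the procedure. With 1 library per antibody, pooled from several immunoprecipitations, there was no replicate error and no difference was tested. Peak lists hold no expression values, so neither the labelled cell type nor the activity of the genes could be checked from them.

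Cytokines of this family signal through IL6ST (gp130), a receptor chain shared by its members. IL6 and IL11 first bind a ligand-specific chain, IL6R or IL11RA, whereas LIF pairs LIFR with gp130, oncostatin M (OSM) pairs OSMR or LIFR with it, and cardiotrophin-like cytokine factor 1 (CLCF1) acts through the CNTFR, LIFR and gp130 complex. Janus kinases at the receptor then phosphorylate STAT3, which enters the nucleus and activates its targets, among them the feedback inhibitor SOCS3. In the liver the pathway is known for the acute phase response of hepatocytes, and it is also active in biliary epithelium and its tumours.

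SBNO1 and TAF4 peaks marked the promoters of the same 7 genes, namely LIF, IL6, CLCF1, IL6R, IL6ST, OSMR and STAT3, and neither protein had a peak within 1 kb of a TSS of IL11, OSM or LIFR. Thus, both proteins were found at 7 of the 10 promoters, while 22.6% of all protein-coding genes had peaks of both. The 7 include LIF, the study's own example, so this count is a description only. Taken alone, SBNO1 marked 25.7% and TAF4 31.9% of all promoters. In the IgG library 1 of the 10 promoters, that of CLCF1, carried a peak, against 1.41% of all genes. All 10 genes had at least 1 SBNO1 peak in the gene or its 50 kb flanks, as had 62.3% of all genes. LIFR was the only one of the 10 without a TAF4 peak at this flank length, since a TAF4 peak lay 1.94 kb beyond its flank. Of all genes, 61.7% had a TAF4 peak in this range. The deposited score of a peak, a whole number between 220 and the cap of 1000 whose scaling is not stated, is used here only to order peaks within a list. Restricting SBNO1 to peaks at or above the median score of its list left promoter peaks at 3 genes, OSMR, CLCF1 and STAT3, compared with 13.1% of all genes.

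**Figure D1:**
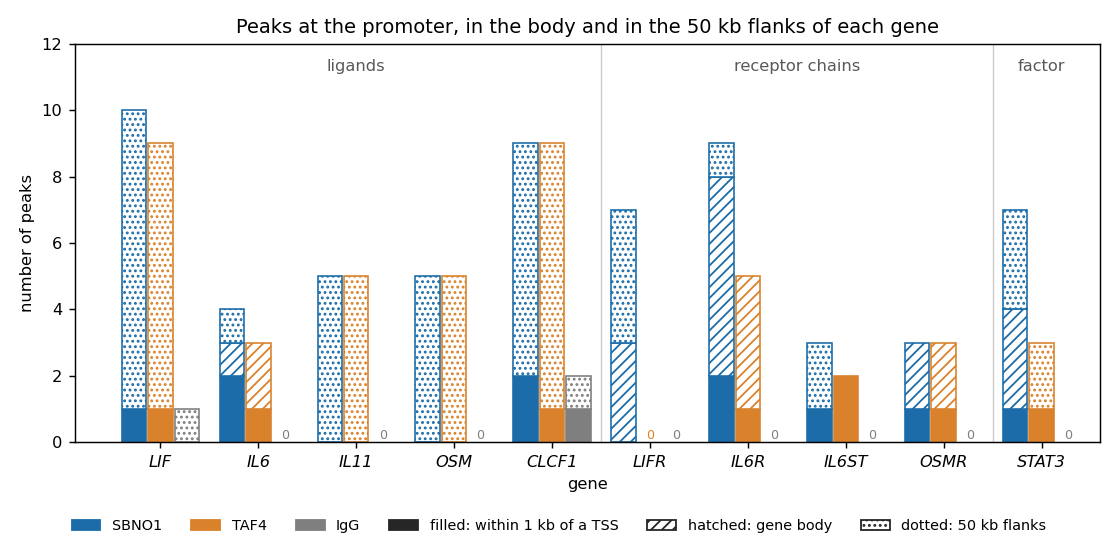
Number of peaks (vertical axis) at each gene (horizontal axis) for SBNO1, TAF4 and IgG, with filled bars for peaks within 1 kb of a TSS, hatched bars for the gene body and dotted bars for the 50 kb flanks. LIF had the most SBNO1 peaks (10), LIFR had 7 SBNO1 and 0 TAF4 peaks, and IgG peaks were seen at LIF and CLCF1.

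To show the DNA behind these calls, promoter sequence from RefSeq (GRCh38.p14) was used for 7 of the 10 genes. Promoter sequences of LIF, OSM and CLCF1 were not used here. The 250 bases before the start site of IL6, IL6R, IL6ST, OSMR and STAT3 lay completely within SBNO1 and within TAF4 peaks. Those of IL11 and LIFR were touched by no peak. The sequences below are printed in the direction of transcription up to the first annotated exon, and they cover 4 promoters with peaks, IL6 at chr7:22726950-22727146 (plus strand), IL6ST at chr5:55995019-55995213 (minus strand), OSMR at chr5:38845762-38845857 (plus strand) and STAT3 at chr17:42388541-42388692 (minus strand), followed by the promoters without a called peak, of IL11 at chr19:55370464-55370713 and LIFR at chr5:38556647-38556896 (both minus strand). Capitals mark exact matches on either strand. The AP-1 motif was searched as TGACTCA and also in its other common form with G in the middle, TGAGTCA. The core of ETS factor sites was searched as CCGGAA. For the KLF and SP zinc finger proteins (KLF/SP), the box bound by them was searched as GGGCGG. In addition, the CCAAT box and the TATA motif, with the letters TATAAA, were searched.
IL6 promoter: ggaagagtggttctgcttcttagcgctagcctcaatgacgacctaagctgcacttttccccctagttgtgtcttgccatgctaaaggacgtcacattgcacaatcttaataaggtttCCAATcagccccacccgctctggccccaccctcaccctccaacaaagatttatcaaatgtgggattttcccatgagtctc
IL6ST promoter: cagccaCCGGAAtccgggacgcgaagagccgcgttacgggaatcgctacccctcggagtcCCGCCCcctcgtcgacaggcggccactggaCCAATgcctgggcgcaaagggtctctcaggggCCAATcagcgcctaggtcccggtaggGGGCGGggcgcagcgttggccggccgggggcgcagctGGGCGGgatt
OSMR promoter: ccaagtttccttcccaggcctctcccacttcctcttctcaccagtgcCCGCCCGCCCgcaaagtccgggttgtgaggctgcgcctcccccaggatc
STAT3 promoter: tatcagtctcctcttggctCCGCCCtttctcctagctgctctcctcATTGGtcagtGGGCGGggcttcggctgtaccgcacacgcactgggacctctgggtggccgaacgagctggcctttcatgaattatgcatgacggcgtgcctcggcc
IL11 promoter: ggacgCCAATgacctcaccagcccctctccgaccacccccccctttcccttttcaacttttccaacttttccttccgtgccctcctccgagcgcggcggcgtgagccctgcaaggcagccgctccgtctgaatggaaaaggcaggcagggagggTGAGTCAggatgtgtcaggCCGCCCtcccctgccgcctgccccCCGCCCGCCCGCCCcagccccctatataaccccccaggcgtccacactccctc
LIFR promoter: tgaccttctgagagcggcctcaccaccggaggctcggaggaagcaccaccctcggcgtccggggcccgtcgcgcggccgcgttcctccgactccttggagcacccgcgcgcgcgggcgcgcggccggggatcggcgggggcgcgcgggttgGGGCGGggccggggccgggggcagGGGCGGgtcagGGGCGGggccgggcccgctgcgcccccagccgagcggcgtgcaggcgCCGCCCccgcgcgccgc

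The 5 promoters with peaks had no motif of these in common. Over the full 250 bases IL6 held 2 CCAAT boxes and no KLF/SP match. IL6ST held 4 KLF/SP matches, 3 CCAAT boxes and 1 ETS match, STAT3 held 2, 2 and 1 of these, respectively, and OSMR held 3 KLF/SP matches, 2 of them overlapping. None of the motifs was found in these 250 bases of IL6R. Matches were also present in the promoters without a called peak, with 4 KLF/SP matches in LIFR and with 4 KLF/SP matches, some overlapping each other, 1 CCAAT box and 1 AP-1 match at -96 bp in IL11. Among 15307 RefSeq promoters of the same length, 59.4% contained the KLF/SP, 34.9% the CCAAT, 20.3% the ETS, 9.09% the TATA and 3.05% the AP-1 motif. No STAT motif (TTCNNNGAA) was present in the 7 promoters, which do not include LIF, OSM and CLCF1, and 5.85% of all promoters contained it. Base composition differed widely between the promoters with peaks. The GC content was 47.6% for IL6, which was above that of 14.1% of promoters, and 73.6% for IL6ST, which was above that of 81.5%. The LIFR promoter, without a called peak, had 83.6%, above that of 98.7% of all promoters. Over all genes the median GC content was 63.6% with and 63.2% without an SBNO1 promoter peak.

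Next, the ligand genes were examined one by one. LIF (chr22:30240453-30246759, minus strand) encodes leukemia inhibitory factor. Its SBNO1 promoter peak (chr22:30246674-30246995) was scored 751, and its TAF4 peak (chr22:30246737-30247278) was scored 403. Their shared part of 259 bp covered both annotated TSS, and the centre lay at -75 bp from the main (MANE) start site for SBNO1 and at -248 bp for TAF4, negative values being upstream. Within their lists these were not high-scoring peaks. Of the SBNO1 peaks near a TSS, 37.4% had a lower score, and of the TAF4 peaks near a TSS 0.877% did. No IgG peak was found at the LIF promoter, and the nearest one was 39.4 kb from a TSS.

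Downstream of LIF the scores were higher than at its promoter. A group of 6 SBNO1 peaks spanned 17.3 kb (chr22:30195880-30213216), 27.2 to 43.4 kb beyond the end of the gene. Their scores were between 863 and 1000, with 3 at the cap. In the whole SBNO1 list the median was 869, and 34.6% of peaks were at the cap. TAF4 had 5 peaks in the same stretch with scores between 829 and 1000, each overlapping an SBNO1 peak. The TAF4 list had a median of 935, with 43.0% of its peaks at the cap. An IgG peak with a score of 880 lay within the group at chr22:30207059-30207336 and overlapped a peak of each protein, whose part in these calls was not tested. The group was picked out after its peaks were seen. For description only, 2.43% of the windows of 20 kb starting at any SBNO1 peak held 6 or more SBNO1 peaks, and 4.25% of those starting at a TAF4 peak held 5 or more TAF4 peaks. Nearer to the gene there was an overlapping pair 4280 bp downstream (SBNO1 score 781, TAF4 503) and another 10860 bp (SBNO1) and 10501 bp (TAF4) upstream (774 and 595). Further single peaks stood upstream, of SBNO1 at 6449 bp (score 491) and of TAF4 at 3896 bp (score 499).

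OSM (chr22:30262829-30266851, minus strand) lies next to LIF, with 16.1 kb and no other protein-coding gene between them. No peak was seen at its 3 TSS or in its body. The 5 SBNO1 and 5 TAF4 peaks in its flanks were all on the downstream side, all were also counted for LIF, and they included the LIF promoter peaks. The closest SBNO1 peak was 7.71 kb and the closest TAF4 peak 7.48 kb from an OSM TSS.

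IL6 (chr7:22725884-22732002, plus strand) encodes interleukin 6. It had 2 SBNO1 promoter peaks, chr7:22726799-22727524 over 5 of 6 TSS with a score of 644 and chr7:22728208-22728680 with a score of 705, which began 968 bp downstream of the last TSS. TAF4 covered the same 5 of 6 TSS with a peak of 943 bp (chr7:22726468-22727410, score 825). The SBNO1 peak over the TSS shared 612 bp with it, and its centre was 222 bp further in the direction of transcription. In the gene body an SBNO1 peak (score 860) and a TAF4 peak (score 851) overlapped at a coding exon, and TAF4 had a further peak (score 957) under the downstream SBNO1 promoter peak. Therefore, each of the 3 TAF4 peaks of IL6 overlapped SBNO1, while 1 of the 4 SBNO1 peaks, 7388 bp upstream, did not overlap TAF4. IgG showed no peak within 50 kb of IL6.

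CLCF1 (chr11:67364168-67374177, minus strand) had 9 SBNO1 and 9 TAF4 peaks. A wide TAF4 peak of 1247 bp (chr11:67373499-67374745, score 1000) covered both start sites and contained 2 SBNO1 peaks, chr11:67373623-67373915 with a score of 841 and chr11:67374033-67374618 with a score of 1000. The latter coincided with an IgG peak (chr11:67374131-67374587, score 600), so that 1 SBNO1 promoter peak remained at CLCF1 once peaks overlapping IgG were left out, and no TAF4 promoter peak remained. A start site of another protein-coding gene without a symbol, ENSG00000256514, lies within 1 kb of these peaks, and they cannot be assigned to either gene. The other 7 SBNO1 peaks of CLCF1 were in the flanks, 2 of them at the TSS of POLD4 and 1 at that of PPP1CA, and all overlapped TAF4. The surroundings of CLCF1 were dense in peaks of all 3 libraries. Within 5 Mb on either side there were 33.8 SBNO1, 30.1 TAF4 and 5.59 IgG peaks per Mb, compared with 5.23, 4.13 and 0.517 in the genome. The part of this density in the count was not tested.

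IL11 (chr19:55364382-55370463, minus strand) encodes interleukin 11. Neither its 2 TSS nor its body carried a peak, and the closest peaks were 15.3 kb (SBNO1) and 14.9 kb (TAF4) away. Each of the 5 SBNO1 peaks in its flanks overlapped 1 of 5 TAF4 peaks. Of these pairs 4 were at the TSS of other genes, 2 at KMT5C, 1 at RPL28 and 1 at UBE2S, and the remaining pair lay in the body of COX6B2. The peaks around IL11 were thus mainly promoter peaks of its neighbours.

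**Figure D2:**
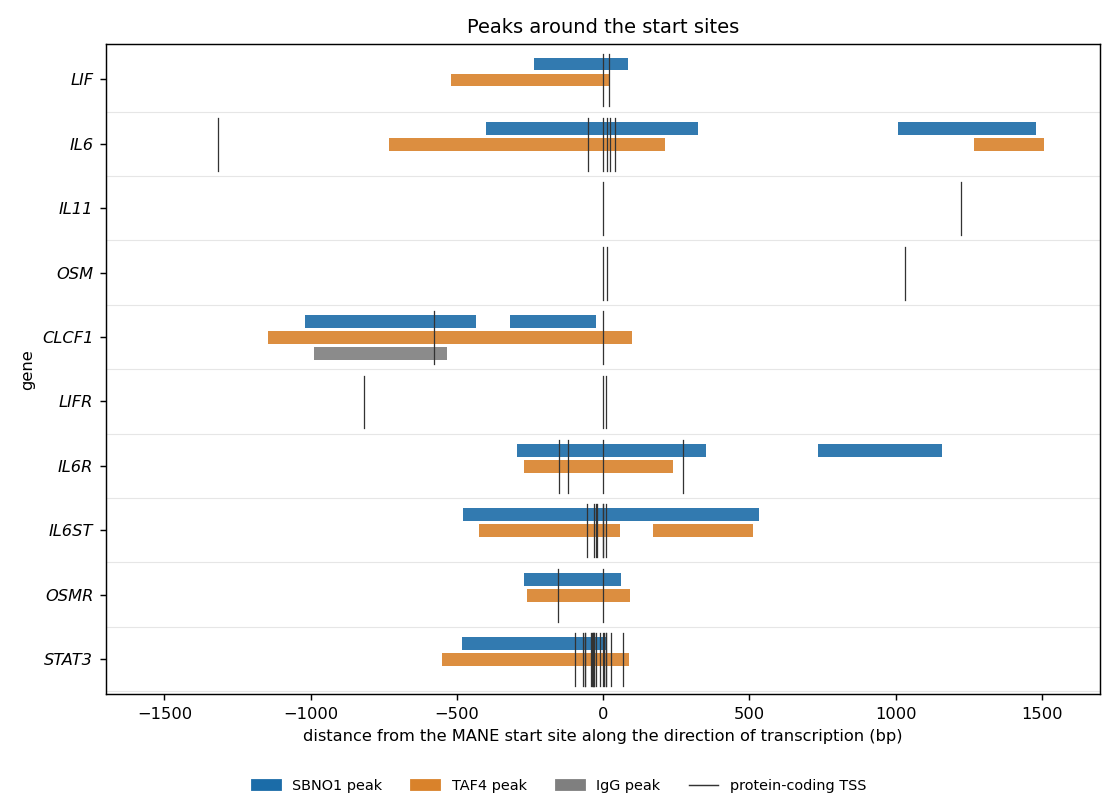
Peaks around the start sites of the 10 genes (rows), drawn to scale as distance in bp from the MANE start site along the direction of transcription. Bars are peaks of SBNO1, TAF4 and IgG and vertical lines are protein-coding TSS; the rows of IL11, OSM and LIFR hold no bar.

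Among the receptor genes, IL6R (chr1:154405193-154469450, plus strand), the specific chain for IL6, had the most peaks, 9 of SBNO1 and 5 of TAF4. At the promoter an SBNO1 peak with a score of 589 (chr1:154405047-154405695) contained the TAF4 peak with a score of 1000 (chr1:154405071-154405581), and both covered the MANE start site. A further SBNO1 peak 463 bp downstream of a TSS had a score of 599 and no TAF4 peak. The introns of IL6R held 6 SBNO1 peaks, of which 4 overlapped a TAF4 peak. The scores of these 4 pairs were 1000 and 1000, 960 and 824, 1000 and 1000, and 1000 and 721 for SBNO1 and TAF4, respectively, and the SBNO1 peaks without TAF4 scored 476 and 1000. Therefore, 5 of the 6 intronic SBNO1 peaks scored higher than those at the promoter. The same comparison cannot be made for TAF4. Its promoter peak was at the score cap of 1000, which no peak can exceed. Peak density around IL6R was also above that of the genome, with 19.9 SBNO1 and 16.6 TAF4 peaks per Mb.

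IL6ST (chr5:55935095-55995022, minus strand) encodes the shared chain gp130. A single SBNO1 peak of 1015 bp with a score of 734 (chr5:55994430-55995444) extended over 2 TAF4 peaks, of which chr5:55994905-55995389 with a score of 1000 covered 7 of 9 TSS and chr5:55994450-55994792 with a score of 956 lay 162 bp downstream of the nearest one. No peak was found in the body. In the flanks SBNO1 had 2 peaks without TAF4, one 2727 bp upstream of a TSS with a score of 809, the other downstream in the body of IL31RA with a score of 1000.

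OSMR (chr5:38845858-38945596, plus strand), the receptor chain for oncostatin M, carried 3 peaks of each protein, all of them overlapping. At the promoter the SBNO1 peak chr5:38845741-38846072 and the TAF4 peak chr5:38845750-38846105 both reached the score cap, shared 323 bp and had centres 21 bp apart. Both remaining SBNO1 peaks, in introns with centres 8069 bp and 26346 bp downstream of the MANE start site, overlapped TAF4 with scores of 1000 and 937 for SBNO1 and 1000 and 1000 for TAF4. Neither SBNO1 nor TAF4 had a peak in the flanks of OSMR.

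LIFR (chr5:38474668-38608354, minus strand), the receptor chain for LIF, is the protein-coding neighbour of OSMR, 238 kb away. Its pattern was the opposite. SBNO1 had 7 peaks, 3 in introns and 4 in the flanks, the closest of them 3.47 kb from a TSS, and TAF4 had 0. The closest TAF4 peak (chr5:38660298-38660643, score 1000) was 51.9 kb from the gene and 64.9 kb from a LIFR TSS, so it lay 1.94 kb outside the 50 kb flank and would be counted with flanks of 100 kb. The SBNO1 scores were 764, 646 and 782 in introns, 832 and 778 downstream, and 740 and 1000 upstream of the gene. With the exception of the last one, which was also narrow (221 bp), all were below the median score of the SBNO1 list (869). Of the 759 genes with 7 or more SBNO1 peaks in the gene and its 50 kb flanks, 2, LIFR included, had no TAF4 peak (0.264%), while 38.3% of all genes had none. Both figures rest on the 50 kb limit. LIFR was singled out here after its values were seen. In the 5 Mb on either side of LIFR, TAF4 peaks were present at 5.92 per Mb and SBNO1 peaks at 9.67 per Mb.

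STAT3 (chr17:42313324-42388540, minus strand) is the transcription factor on which the receptors converge. At its promoter the SBNO1 peak chr17:42388429-42388925 and the TAF4 peak chr17:42388355-42388994 both had a score of 1000, and their centres differed by 3 bp. The shared 497 bp covered 16 of 19 TSS. Within the gene 3 further SBNO1 peaks with scores of 915, 959 and 803 stood 18753 to 23073 bp downstream of the nearest TSS, 2 centred in introns and 1 in a coding exon, and no TAF4 peak was found in the gene body. Of the 3 SBNO1 peaks in the flanks, 2 overlapped TAF4, one at the CAVIN1 TSS and one in the body of STAT5B.

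**Figure D3:**
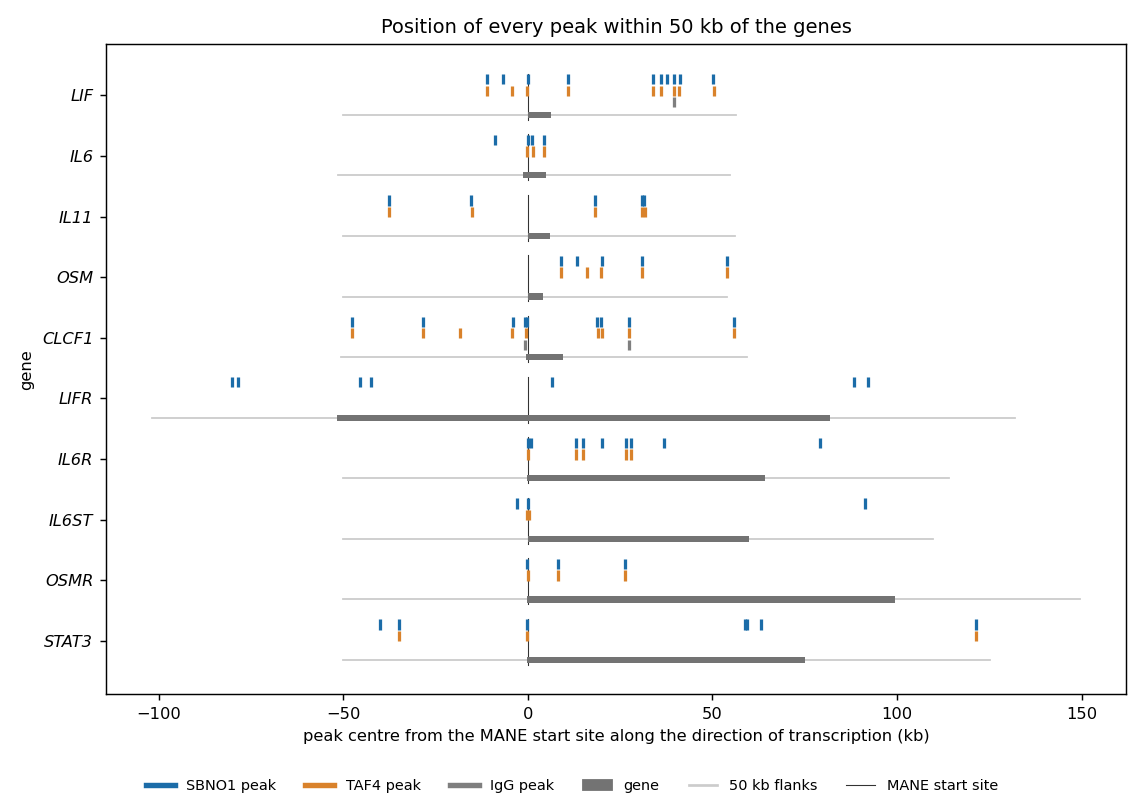
Centres of all SBNO1, TAF4 and IgG peaks in and within 50 kb of the 10 genes (rows), as distance in kb from the MANE start site along the direction of transcription; grey boxes are the genes and thin lines the flanks. The group of 6 SBNO1 and 5 TAF4 peaks downstream of LIF and the 7 SBNO1 peaks of LIFR without TAF4 can be seen.

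The peaks of all 10 genes were then pooled. SBNO1 had a median of 6 peaks per gene (range 3 to 10) and TAF4 of 4 (range 0 to 9), whereas the median over all protein-coding genes was 1 for each, including genes with none. A gene-body peak was found at 5 genes for SBNO1, compared with 14.8% of all genes, at 3 genes for TAF4, compared with 9.91%, and at 0 for IgG, compared with 1.12%. In the flanks SBNO1 peaks were found at 9 genes (48.9% of all genes), TAF4 peaks at 5 (47.1%) and IgG peaks at 2 (4.77%). The TAF4 count in the flanks was therefore close to the background. SBNO1 peaks were denser than in the genome around 7 of the 10 genes, with 24.0 per Mb around STAT3 and 12.6 around IL6ST. They were less dense than in the genome around LIF, OSM and IL11. TAF4 peaks around these 3 genes stood at 4.30, 4.30 and 7.63 per Mb, respectively, above the 4.13 of the genome. On chromosome 5, which holds IL6ST, OSMR and LIFR, the median gene had 2 SBNO1 peaks, and 40.4% of genes had an SBNO1 and 43.9% a TAF4 promoter peak. The part of density, gene length and neighbouring genes in these counts was not tested.

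Since LIF and OSM share peaks, the distinct peaks were 57 for SBNO1, 39 for TAF4 and 3 for IgG. Of the 57 SBNO1 peaks, 37 overlapped TAF4 (64.9%, exact 95% interval 51.1% to 77.1%), and over the whole list this was 59.7%. From the other side, an SBNO1 peak overlapped 37 of the 39 TAF4 peaks (94.9%, interval 82.7% to 99.4%), compared with 75.2% over the whole list. All intervals cover counting error only, and neighbouring peaks are not independent. When peaks had to overlap by at least 50% of both lengths, the shares were 47.4% for SBNO1 and 69.2% for TAF4, and over the whole lists they were 50.8% and 64.3%. The 2 TAF4 peaks without SBNO1 were the upstream peak of LIF mentioned above and a peak at the RAD9A TSS in the flank of CLCF1. IgG overlapped 3 peaks of each protein, which was 5.26% of the SBNO1 peaks (8.57% in the list) and 7.69% of the TAF4 peaks (10.9%). At the promoters the SBNO1 and TAF4 peaks formed 9 overlapping pairs, whose centres were a median of 203 bp apart and which shared a median of 485 bp. The respective medians for all 4062 promoter pairs were 56 bp and 356 bp. At IL6ST and CLCF1 a wide peak was paired with 2 peaks of the other protein. Their SBNO1 centres lay -316 and 210 bp, and 353 and -203 bp, from the TAF4 centres along the direction of transcription. For the single pairs of LIF, IL6, IL6R, OSMR and STAT3 this was 173, 222, 45, -21 and -3 bp.

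To describe the sequence under peaks away from promoters, the 200 bp at the peak centre were searched for motifs, since no summit was given. Of the SBNO1 peaks of the 10 genes, 39 were over 1 kb from any protein-coding TSS, and 21 of these held an exact AP-1 motif, the binding sequence of FOS and JUN dimers (53.8%, interval 37.2% to 69.9%). For all SBNO1 peaks away from a TSS this was 36.5%. Other motifs were also above their list shares in these 39 peaks. KLF/SP was found in 15.4% (interval 5.86% to 30.5%, 8.40% in the list) and CCAAT in 30.8% (17.0% to 47.6%, 22.9% in the list). ETS was found in 7.69% (1.62% to 20.9%, 4.53% in the list). STAT and TATA were below theirs, at 5.13% each, compared with 8.20% and 8.88% in the list. Near a TSS 3 of 18 peaks held AP-1 (16.7%, interval 3.58% to 41.4%), compared with 7.10% in the list. TAF4 peaks away from a TSS held AP-1 in 11 of 22 cases (interval 28.2% to 71.8%, 32.2% in the list). AP-1 was present in 11 of 20 SBNO1 peaks away from a TSS that overlapped TAF4 (33.0% in the list) and in 10 of 19 that did not (39.9% in the list). The STAT motif was found in 2 of all 57 SBNO1 peaks (3.51%, interval 0.428% to 12.1%, 7.26% in the list) and in 3 of 39 TAF4 peaks (7.69%, interval 1.62% to 20.9%, 6.35% in the list). In SBNO1 peaks these were 1 intronic peak each of IL6R and STAT3. In TAF4 peaks they were the LIF promoter peak, an intronic peak of IL6R and the peak at the RPL28 TSS in the flank of IL11.

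**Figure D4:**
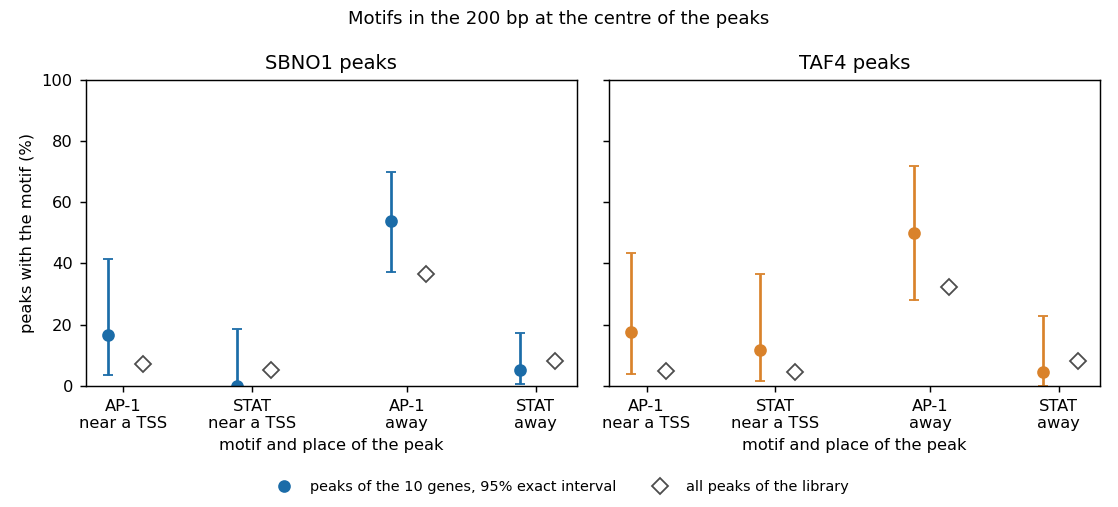
Share of peaks (%) with an AP-1 or STAT motif in the 200 bp at the peak centre, for SBNO1 (left) and TAF4 (right) peaks near or away from a TSS. Filled points are the peaks of the 10 genes with exact 95% intervals and open diamonds are all peaks of the library; the AP-1 share away from a TSS was 53.8% against 36.5% for SBNO1.

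The following 4 peak centres with AP-1 matches are shown to compare sites with and without TAF4. They are from the LIF downstream group (chr22:30210599-30210798, score 1000, with TAF4), an IL6R intron (chr1:154418314-154418513, score 1000, with TAF4), a LIFR intron (chr5:38601961-38602160, score 782, without TAF4) and a STAT3 intron (chr17:42325199-42325398, score 915, without TAF4). All are read on the plus strand of GRCh38, and capitals mark the AP-1 matches.
LIF downstream peak: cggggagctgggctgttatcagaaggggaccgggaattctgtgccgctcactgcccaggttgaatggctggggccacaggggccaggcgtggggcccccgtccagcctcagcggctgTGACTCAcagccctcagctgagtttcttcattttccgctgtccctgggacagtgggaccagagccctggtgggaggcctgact
IL6R intron peak: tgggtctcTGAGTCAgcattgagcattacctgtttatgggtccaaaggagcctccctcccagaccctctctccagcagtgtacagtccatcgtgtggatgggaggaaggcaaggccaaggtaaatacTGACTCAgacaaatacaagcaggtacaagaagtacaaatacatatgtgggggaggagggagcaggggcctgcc
LIFR intron peak: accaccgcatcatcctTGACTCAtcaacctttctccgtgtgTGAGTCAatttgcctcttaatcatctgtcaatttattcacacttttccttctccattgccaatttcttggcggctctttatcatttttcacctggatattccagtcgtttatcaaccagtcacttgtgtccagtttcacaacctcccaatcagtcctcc
STAT3 intron peak: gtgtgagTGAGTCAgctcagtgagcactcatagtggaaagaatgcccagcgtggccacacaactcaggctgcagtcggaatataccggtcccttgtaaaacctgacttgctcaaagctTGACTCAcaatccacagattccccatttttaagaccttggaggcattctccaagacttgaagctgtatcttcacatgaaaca
The peaks of IL6R, LIFR and STAT3 shown here each hold 2 AP-1 matches. Such repeated matches were found in 4 of the 19 SBNO1 peaks away from a TSS without TAF4 and in 1 of the 20 with TAF4, compared with 344 of 5735 and 292 of 5621 such peaks in the whole list. The 4 were 2 peaks each of LIFR and STAT3, so they come from 2 genes only.

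Finally, the rest of the pathway was described with 6 lists holding 55 further genes. In all, 16 of the 55 (29.1%) had an SBNO1 and 19 (34.5%) a TAF4 promoter peak, close to the shares of all genes. IgG marked 5 of the 55 (9.09%), above its share of 1.41% in all genes. The lists differed, however. None of 6 other ligands of the family and none of 12 acute phase genes of the liver had a promoter peak of any library. Of 4 other receptor chains IL11RA, the chain for IL11, was marked by both proteins. Of 10 kinases, adaptors and other STATs, promoters with peaks of both proteins included those of the adaptor GRB2 and of STAT2, which acts in interferon signalling, the latter also with an IgG peak. Among 9 feedback inhibitors SBNO1 marked 4 and TAF4 4. Both were found at SOCS3, which blocks gp130 signalling, and at the phosphatase genes PTPN1 and PTPN6, the latter also with IgG, while PIAS3 carried SBNO1 only and SOCS2 TAF4 only.

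The known target genes of STAT3 had the highest shares of the 6 lists, with SBNO1 at 8 of 14 promoters (57.1%) and TAF4 at 11 (78.6%). Both proteins marked the transcriptional regulators BCL3, JUNB, HIF1A, IRF1, FOSL1 and BATF, the kinase gene PIM1 and the survival gene MCL1. TAF4 alone was found at CCND1 (cyclin D1), CEBPB and VEGFA. IgG had a peak at 3 of these promoters, MCL1, HIF1A and FOSL1, against 1.41% of all genes. At SOCS3 the SBNO1 score was 702 and the TAF4 score 940, and at JUNB they were 916 and 1000. At IRF1 the peaks were at different places, SBNO1 at chr5:132496301-132496526 and TAF4 at chr5:132490629-132491078, both with a score of 1000. Since the targets were listed from general knowledge and with earlier results of these data known, the shares are a description of the lists.

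**Figure D5:**
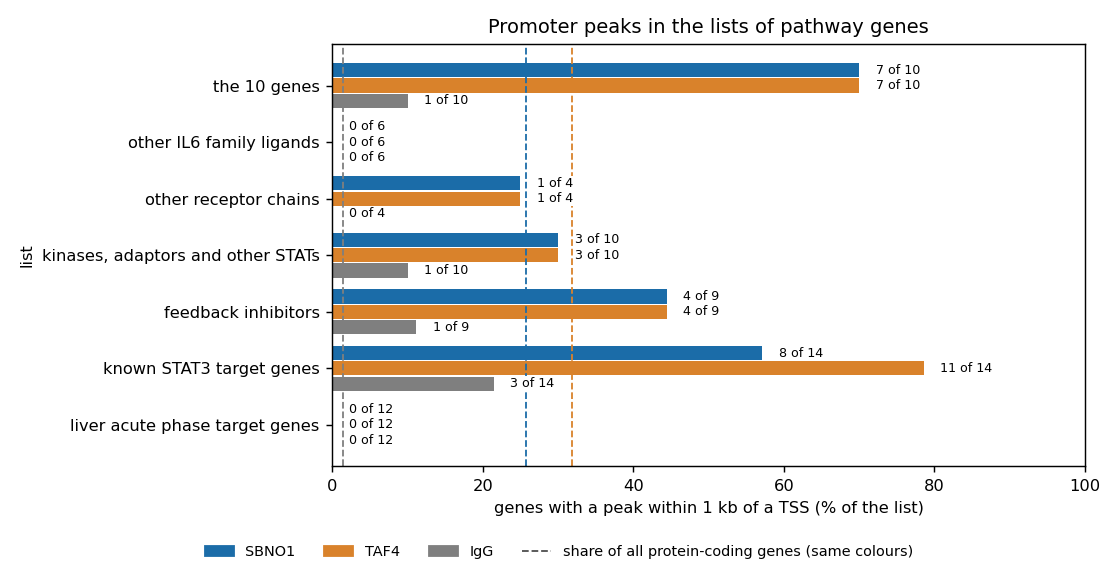
Share of genes (%) with a peak within 1 kb of a TSS in the 10 genes and in the 6 other lists (rows), for SBNO1, TAF4 and IgG, with counts beside the bars. Dashed lines give the share of all protein-coding genes in the same colour (25.7%, 31.9% and 1.41%); other ligands and acute phase genes had none.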

How the data were processed

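ChIP-seq peak lists of HuCCT1 cells were used, 1 each for SBNO1, TAF4 and IgG (16147, 12763 and 1598 peaks), without replicates. According to the study's methods, immunoprecipitates of several biological replicates were pooled per antibody, sequenced as short single-end reads, trimmed with ktrim and aligned with bowtie2. The methods name normR as the peak caller, whereas the submitters' processing notes name Bowtie2 2.5.4 and Genrich 0.6.1 with GRCh38.p14. Which caller made the lists, its threshold and the use of IgG as control are not given in the sources used here. Each deposited peak has a position and a score, the authors' whole number capped at 1000 with unstated scaling. No read numbers are held, so the depth of each library is unknown.

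Peaks were set against 78567 TSS of protein-coding transcripts (GENCODE 44, GRCh38), 1-based, in Python 3.11.15 with SciPy 1.17.1. A promoter peak had its nearest edge within 1 kb of a TSS and counted for every gene in reach. Body peaks touched the gene and flank peaks lay within 50 kb of it, neither being promoter peaks of that gene. Peaks overlapped when they shared 1 bp. Motifs were exact matches on either strand in the central 200 bp. RefSeq promoters were the 250 bases before the start. Shares carry exact Clopper-Pearson intervals for counting error. No p-values were computed. Functions were tested on simulated data. Alternatives covered TSS sets, distances, scores, IgG overlap and flank lengths. All 10 genes are named, other list genes where they had a promoter peak, and further genes where a flank peak lay at their TSS or in their body. Members and lists were chosen with earlier results of these data known.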

Additional observations from a re-analysis of the deposited data

How the results depend on the processing

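Of 88 alternative values, 73 stayed within 1.5 times the count or within the counting interval of the share, and 15 moved. The 7 genes with SBNO1 and TAF4 promoter peaks were the same with TSS of all transcripts, 1 TSS per gene, 500 bp, 3 kb, distances from the peak centre and nearest-TSS assignment. At or above the median score, SBNO1 promoter peaks were left at 3 genes and body peaks at 3. TAF4 promoter peaks were left at 5 genes, compared with 19.6% of all genes. The SBNO1 peaks fell to 29, IgG promoter peaks to 0, and TAF4 peaks with SBNO1 to 61.5%. At the score cap the promoter counts were 3 for SBNO1 and 5 for TAF4, compared with 9.14% and 17.3% of all genes, and 0 for IgG. Overlap of 50% of both peaks gave 47.4% for SBNO1 and 69.2% for TAF4. With flanks of 100 kb, TAF4 peaks were found at 9 genes, LIFR included, IgG peaks at 4 genes and 6 IgG peaks in all, and with 25 kb IgG peaks at 1 gene. No share of all genes is given here for these flank lengths, for body peaks at the median score or for the filtered IgG counts. These counts therefore cannot be set against a background. Nor can the 61.5% at the median score, as the whole-list share under that filter is not given. In the central 200 bp, CCAAT was found in 33.3% of SBNO1 peaks (25.8% in the list) and KLF/SP in 35.9% of TAF4 peaks (34.7%). Over whole peaks, where longer sequence was searched, these shares were 50.9% (43.3% in the list) and 61.5% (46.9%). Leaving out peaks that overlap IgG moved no value this far. No paired analysis was possible because no antibody had a replicate library. Without read depth, a missing peak is not evidence of absent binding.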

Other observations

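The surroundings of the 55 other pathway genes were less filled than those of the 10 genes. In the gene and its 50 kb flanks, 42 of the 55 had an SBNO1 peak, 42 a TAF4 peak and 8 an IgG peak. Of all protein-coding genes, 62.3%, 61.7% and 6.76% did, respectively. Of the 55 genes, 10 had no peak of any library. The median of the 55 was 2 SBNO1 and 2 TAF4 peaks per gene, against 6 and 4 for the 10 genes. The fullest were FOSL1, a FOS-related AP-1 subunit, with 13 SBNO1, 12 TAF4 and 2 IgG peaks, the feedback inhibitor SOCS3 with 11 SBNO1, 7 TAF4 and 0 IgG peaks, and the phosphatase gene PTPN6 with 10, 10 and 2 peaks, respectively. These genes were picked out after their values were seen.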
